A study of Mus musculus with 4 samples.

Results

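The tricarboxylic acid cycle genes described here are 9 enzymes chosen by symbol for their place in the cycle: Cs, Idh1, Idh2, Idh3a, Ogdh, Suclg1, Fh1, Mdh1 and Mdh2. All 9 of the 9 listed genes were measured, among 12393 genes on the array, and each was read from the probe set with the highest mean log2 level. RNA came from the proximal intestinal epithelium of C57BL/6 mice aged 4 to 6 weeks. The first group was wild-type Lgr5(hi) stem cells sorted by flow cytometry (2 arrays). The second was differentiated villus cells released with EDTA from mice with an induced Atoh1 knockout in the intestinal epithelium, which the submitters call enterocytes (2 arrays). Tamoxifen at 1 mg per day for 5 days, then 5 days of waiting, stands in the labels of both groups, and neither the Cre driver nor the animals behind each array are given in the sources used here. The labels call the replicates biological but do not say that they came from separate animals. The p-values therefore measure only the spread between these arrays. Cell type, genotype and isolation differ together between the groups and cannot be told apart, and in bulk RNA a difference in the number of cells of a type cannot be told apart from a difference in RNA per cell.

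The cycle runs in the mitochondrial matrix, where citrate synthase joins acetyl-CoA to oxaloacetate and a series of dehydrogenases then passes electrons to the respiratory chain. Some of its reactions are also carried out in the cytosol by separate gene products, so that Idh1 and Mdh1 are cytosolic enzymes while Idh2 and Mdh2 are their mitochondrial counterparts. In the small intestine, absorptive enterocytes are known to oxidise glutamine and other dietary fuels, whose carbon enters the cycle through its intermediates.

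Most cycle enzymes were higher in the enterocyte arrays. Of the 9 members, 7 were higher past the threshold, 1 was lower and 1 did not pass, by limma with an adjusted p under 0.05 over all genes. Over the whole array 40.6% of genes were called, 18.2% as higher and 22.4% as lower. The median log2 difference of the 9 members, enterocyte minus Lgr5(hi), was 0.87, against -0.0026 over all 12393 genes. Cytosolic Idh1 had the largest rise, at 4.47-fold, and mitochondrial Idh2 was the member that fell, by 0.84 on the log2 scale. In all 9 members the arrays of the groups did not overlap, which also held for 65.3% of all genes. Without either Lgr5(hi) array limma called 0 of all 12393 genes, and so 0 members, while 6 or 7 members were higher and 1 lower at an unadjusted p under 0.05. Leaving out the first enterocyte array left calls of 663 higher and 1058 lower genes over the whole array, and leaving out the second 570 and 853. In both cases Cs and Mdh2 were called as higher (2 of 9) and Idh2 as lower.

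**Figure D1:**
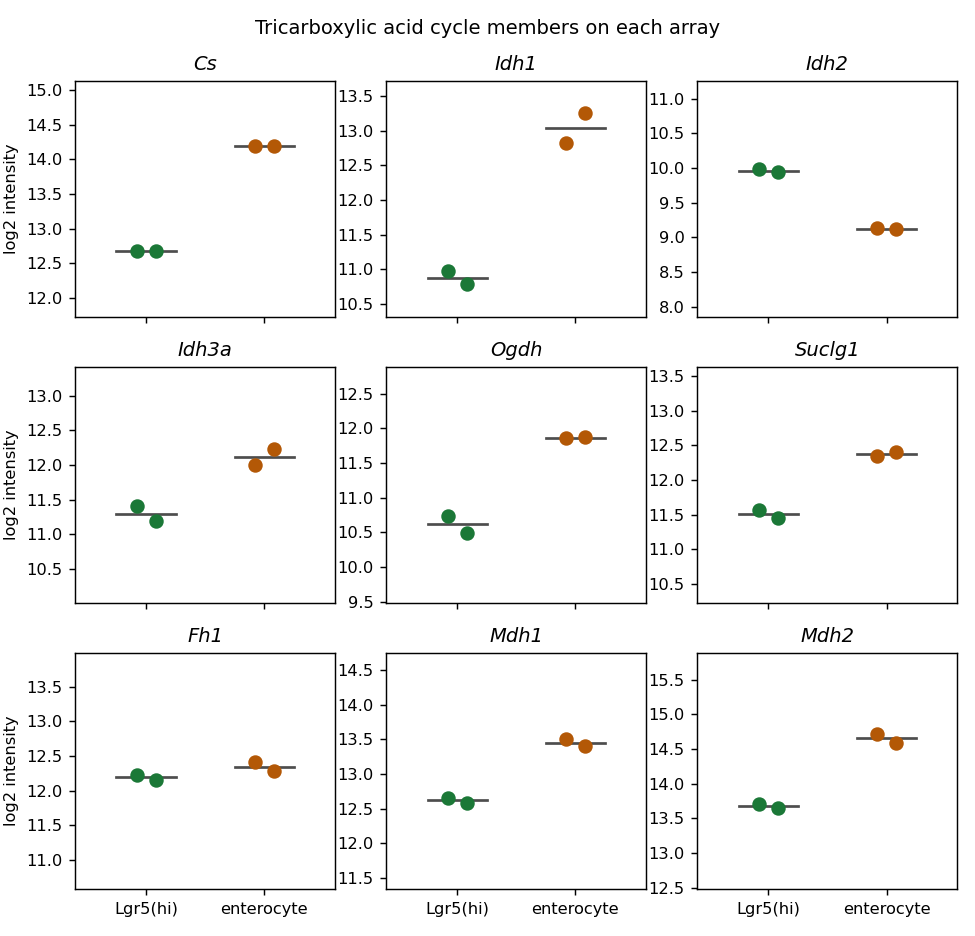
Log2 intensity of the 9 cycle members on each of the 4 arrays, Lgr5(hi) in green and enterocyte in orange, with a line at each group's mean; every panel spans the same number of log2 units. Idh1 shows the widest step up, Idh2 steps down, and Fh1 differs by 0.15.

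The arrays were checked against their labels with marker genes. Array medians lay between 102.4 and 110.6 intensity units. The sort gene Lgr5 fell from log2 11.33 and 10.96 in the Lgr5(hi) arrays to 6.92 and 6.09 in the enterocyte arrays, and Atoh1 fell from 7.43 and 7.71 to 5.06 and 5.28, which is below the background level of log2 5.59. Both directions were set by the design. All 9 measured enterocyte markers were higher and all 10 stem cell markers lower in the enterocyte arrays. All 9 measured proliferation markers were lower, with sums of 21453 and 20335 against 7248 and 7558. Markers of several other cell types also differed between the groups. Over the whole array 18.2% of genes were called as higher and 22.4% as lower. Lymphocyte markers were higher for 10 of 12 genes, with summed intensities of 670 and 929 in the Lgr5(hi) arrays and 8765 and 11831 in the enterocyte arrays, and 6 and 2 of the 12 lay below background. Goblet markers summed to 35921 and 42105 against 648 and 1196, with 7 of 7 lower, and enteroendocrine markers to 9467 and 11810 against 643 and 551, with 8 of 10 lower. In the enterocyte group 2 of the 7 goblet and 5 of the 10 enteroendocrine genes lay below background, and 0 of either in the Lgr5(hi) group. Paneth markers, with 2 of 5 lower, summed to 34467 and 47231 in the Lgr5(hi) arrays, and to 678 and 6088 in enterocyte replicates 1 and 2. Below background lay 1 of the 5 in the Lgr5(hi) group and 2 in the enterocyte group. Tuft markers were higher for 6 of 7 genes, with sums of 765 and 529 against 4430 and 2963, and 2 and 1 of the 7 lay below background. Myeloid markers, 2 of 8 higher and 2 lower, summed to 2136 and 3021 against 767 and 732. These shares, 25% in each direction, are near those over the array, and 2 of the 8 lay below background in each group. Stromal and endothelial markers had 0 of 10 higher and 1 lower by limma (2 and 1 at an unadjusted p under 0.05), with sums of 468 and 562 against 484 and 464 and 7 of 10 below background in each group. All 3 measured erythroid markers lay below background in both groups, and limma called 0 (0 also unadjusted). The part of these other cells in the cycle results was not tested.

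Citrate synthase, encoded by Cs, opens the cycle by making citrate. Its log2 intensity was 12.68 and 12.67 in the Lgr5(hi) arrays and 14.18 and 14.18 in the enterocyte arrays. Replicates of each group nearly coincided, and the groups lay far apart. The rise was 2.84-fold (1.51 ± 0.05 SE on the log2 scale, 2 arrays in each group, limma adjusted p = 0.00265). Leaving out any array kept the difference between 1.504 and 1.513, with adjusted p from 0.0427 to 0.0552.

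Isocitrate dehydrogenases went in opposite directions. Idh1 encodes the cytosolic enzyme, which makes NADPH from isocitrate outside the mitochondria. Its log2 intensity was 10.97 and 10.78 in the Lgr5(hi) arrays and 12.82 and 13.25 in the enterocyte arrays. Both enterocyte arrays were high, although they differed from each other more than for any other member. The rise was 4.47-fold (2.16 ± 0.19 SE, adjusted p = 0.00693), which placed Idh1 at rank 483 of 12393 genes ordered from the largest rise. Idh2 encodes the mitochondrial NADP-dependent enzyme. Its log2 intensity was 9.98 and 9.94 in the Lgr5(hi) arrays and 9.13 and 9.12 in the enterocyte arrays. Both enterocyte arrays were low, and the fall was 1.79-fold (-0.84 ± 0.05 SE, adjusted p = 0.00452). Idh3a encodes the catalytic subunit of the NAD-dependent enzyme that serves the cycle itself. It read 11.41 and 11.19 in the Lgr5(hi) arrays and 12.005 and 12.238 in the enterocyte arrays, a rise of 1.77-fold (0.82 ± 0.14 SE, adjusted p = 0.0237). That rise was seen on the brightest probe set and not on the others, as given further on.

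Promoter windows of Idh1 and Idh2 are shown because these genes moved apart, and those of Cs and Mdh2 because their rises were called also without an enterocyte array. They are RefSeq windows of assembly GRCm38.p6, 250 bases before to 50 after an annotated start, read 5′ to 3′ on the gene's strand, and 8 of the 9 members had at least 1 window. Idh3a was not matched. The motifs were chosen after the data were seen. Capitals mark the letters AAGGTCA (core of the oestrogen-related receptor element), TGCGCATGC (core of the NRF1 site), TGACGTCA (cyclic AMP response element), CAAAGTCCA (part of an HNF4 element), GGGCGG (known as the GC box) and the CCAAT box, searched on both strands. No printed matches overlap each other.
Idh1 at chr1:65186430-65186729, minus strand: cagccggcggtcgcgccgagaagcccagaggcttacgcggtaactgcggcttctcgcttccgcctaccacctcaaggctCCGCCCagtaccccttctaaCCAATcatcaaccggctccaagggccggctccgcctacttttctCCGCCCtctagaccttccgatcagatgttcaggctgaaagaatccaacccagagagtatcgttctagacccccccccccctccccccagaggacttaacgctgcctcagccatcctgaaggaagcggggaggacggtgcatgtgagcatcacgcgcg
Idh1 at chr1:65179093-65179392, minus strand: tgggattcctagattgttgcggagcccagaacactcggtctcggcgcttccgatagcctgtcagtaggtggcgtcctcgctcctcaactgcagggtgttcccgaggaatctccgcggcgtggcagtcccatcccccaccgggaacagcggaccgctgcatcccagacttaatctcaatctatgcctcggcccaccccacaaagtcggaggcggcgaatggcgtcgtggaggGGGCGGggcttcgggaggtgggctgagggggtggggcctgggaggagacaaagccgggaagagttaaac
Idh2 at chr7:80115301-80115600, minus strand: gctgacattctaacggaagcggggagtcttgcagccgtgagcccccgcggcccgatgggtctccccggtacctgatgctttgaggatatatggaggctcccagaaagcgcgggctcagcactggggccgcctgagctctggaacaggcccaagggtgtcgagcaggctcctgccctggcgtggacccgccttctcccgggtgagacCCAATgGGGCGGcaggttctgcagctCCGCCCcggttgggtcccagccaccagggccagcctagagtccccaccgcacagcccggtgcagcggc
Cs at chr10:128337477-128337776, plus strand: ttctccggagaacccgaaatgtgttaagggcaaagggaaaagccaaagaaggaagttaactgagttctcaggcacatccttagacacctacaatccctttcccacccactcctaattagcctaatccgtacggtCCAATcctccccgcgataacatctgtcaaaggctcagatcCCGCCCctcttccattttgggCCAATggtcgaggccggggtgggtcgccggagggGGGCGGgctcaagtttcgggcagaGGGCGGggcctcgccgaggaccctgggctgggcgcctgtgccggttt
Mdh2 at chr5:135778399-135778698, plus strand: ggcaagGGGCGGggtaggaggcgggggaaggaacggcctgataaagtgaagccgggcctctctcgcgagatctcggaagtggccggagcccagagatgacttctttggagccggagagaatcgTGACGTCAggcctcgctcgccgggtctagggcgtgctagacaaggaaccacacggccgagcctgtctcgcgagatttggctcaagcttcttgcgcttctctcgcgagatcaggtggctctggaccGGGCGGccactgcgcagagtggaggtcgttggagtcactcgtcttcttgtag

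Of these motifs the windows of Idh1 and Idh2 held only GC and CCAAT boxes, which were common in the windows searched. A GC box was found in 7 of the 8 members and in 35.7% of 32851 windows. A CCAAT box was found in 6 of the 8 members and in 37.4% of windows. The windows searched do not cover every chromosome. Members count if any of their windows matched, so their counts are not on the scale of the window shares. A cyclic AMP response element stood in Mdh2, at base -127 from its start, and in Ogdh, against 1.79% of windows. The receptor core AAGGTCA and the NRF1 core stood in windows of Ogdh alone among the members, against 4.72% and 1.52% of windows, and no member held CAAAGTCCA, found in 0.475%. Ogdh has 6 windows and Idh1 has 2, so they had more letters to match. A match describes the letters only.

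The next oxidation is carried out by the oxoglutarate dehydrogenase complex, whose first subunit is encoded by Ogdh. Its log2 intensity was 10.73 and 10.50 in the Lgr5(hi) arrays and 11.85 and 11.87 in the enterocyte arrays. The groups were well separated, with a rise of 2.37-fold (1.25 ± 0.11 SE, adjusted p = 0.00661). Suclg1 encodes the alpha subunit that is shared by both forms of succinyl-CoA ligase. It read 11.56 and 11.45 in the Lgr5(hi) arrays against 12.34 and 12.41 in the enterocyte arrays. It rose 1.83-fold (0.87 ± 0.07 SE, adjusted p = 0.00647).

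Fumarase, encoded by Fh1, was the member without a call. Its log2 intensity was 12.23 and 12.16 in the Lgr5(hi) arrays and 12.41 and 12.28 in the enterocyte arrays. The closest arrays of the groups lay nearer to each other than the replicates did, and the difference of 0.15 ± 0.08 SE did not pass (adjusted p = 0.236). Centring each array on its own gene median raised it to 0.38, past the threshold (adjusted p = 0.0342).

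The genes of both malate dehydrogenases, the mitochondrial one that closes the cycle and the cytosolic one, rose on the probe sets used. Mitochondrial Mdh2 read 13.70 and 13.65 in the Lgr5(hi) arrays and 14.72 and 14.59 in the enterocyte arrays, 1.97-fold higher (0.98 ± 0.08 SE, adjusted p = 0.00584). Cytosolic Mdh1, which works in the malate-aspartate shuttle, read 12.66 and 12.59 against 13.50 and 13.40. It was 1.78-fold higher (0.83 ± 0.07 SE, adjusted p = 0.00665). For both genes the enterocyte arrays lay above the Lgr5(hi) arrays by far more than replicates differed.

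Probe sets of a gene did not always give the same size of change. The 9 members have 18 probe sets with their own symbol. In a fit over all 20380 probe sets, chosen after the data were seen, 13 of the 18 were higher, 1 lower and 4 not past the threshold, against 17.8% higher and 19.6% lower over the array. All 3 probe sets of Cs rose, with log2 differences of 1.51, 1.78 and 2.33. Both probe sets of Idh1 rose, by 2.16 and 3.21, and both of Mdh2, by 0.98 and 1.72. In these genes the dimmer probe sets gave the larger rises. Mdh1 gave 0.83 and 0.77 on probe sets of a type that may cross-hybridise, 2.13 on another, and -0.50, not past the threshold, on a probe set with a mean level of 5.40, below the background level. For Idh3a the dimmer probe sets gave 0.19 and 0.03, neither past the threshold, and the gene also lost its call with the mean over its probe sets (0.35, adjusted p = 0.101). Both probe sets of Idh1 are of the type that can match several transcripts, and Idh2, Ogdh, Suclg1 and Fh1 rest on 1 probe set each.

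**Figure D2:**
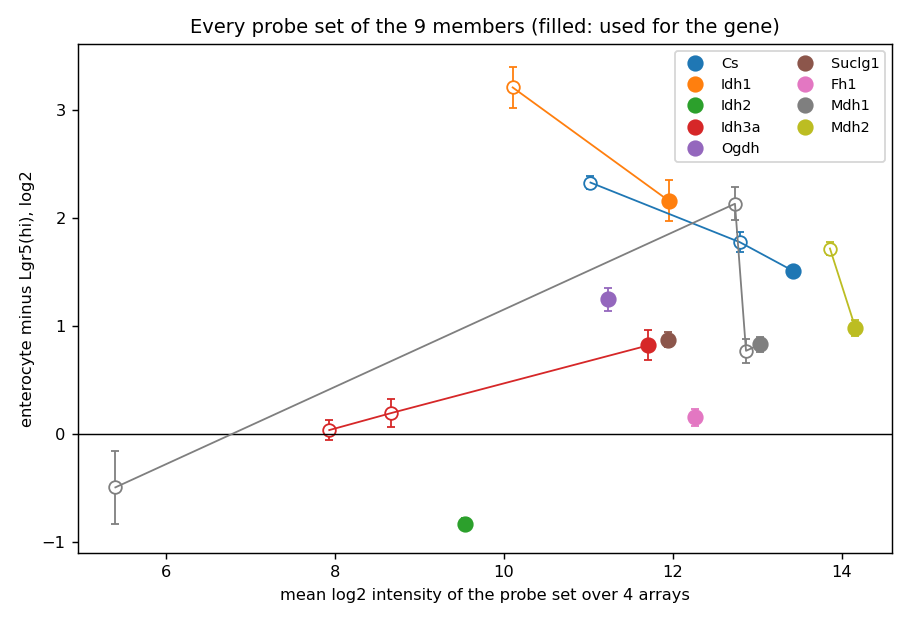
Log2 difference, enterocyte minus Lgr5(hi), against the mean log2 intensity of each of the 18 probe sets of the 9 members; bars are limma standard errors, lines join probe sets of a gene and filled points are those used for the gene. Cs, Idh1 and Mdh2 rise on every probe set, while Idh3a and Mdh1 each have probe sets near or below 0.

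Signal ratios of isozymes within an array do not move when an array is rescaled. The log2 ratio of cytosolic Idh1 to mitochondrial Idh2 was 0.99 and 0.84 in the Lgr5(hi) arrays and 3.69 and 4.13 in the enterocyte arrays. Both enterocyte arrays lay well above both Lgr5(hi) arrays, a shift of 2.995, or 7.97-fold. Its size was 4.05 with the dimmer probe set of Idh1. The exact two-sided permutation test gave p = 0.333, the smallest p that 2 against 2 arrays allow. The ratio of Mdh1 to Mdh2 was -1.04 and -1.06 in the Lgr5(hi) arrays and -1.22 and -1.19 in the enterocyte arrays. It shifted by only -0.15 (exact p = 0.333), and the other pairs of probe sets ran from -0.95 to 1.15, so the data set no direction for it. The range leaves out the Mdh1 probe set below background, with which the shift was -2.21 at its lowest. These ratios are of probe signals and show unequal change, not relative amounts.

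**Figure D3:**
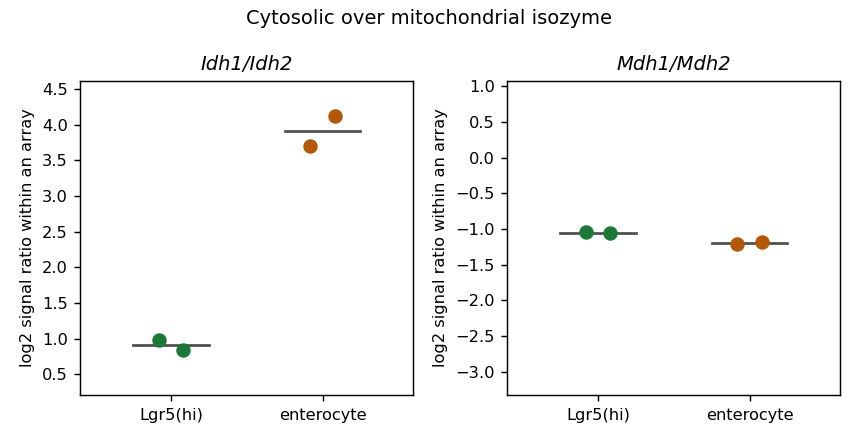
Log2 ratio of probe set signals within each array for Idh1 over Idh2 and for Mdh1 over Mdh2, with a line at each group's mean (n = 2 arrays per group); both panels span the same number of log2 units. The first ratio rises from a mean of 0.91 to 3.91, and the second stays near -1.05 and -1.20.

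Among the other enzymes of the cycle, 11 of 12 were measured. Of these, 6 were higher, 0 were lower and 5 did not pass by limma, with a median of 0.84. At an unadjusted p under 0.05, 8 were higher and 0 lower. The limma shares, 54.5% higher and 0% lower, stand beside 18.2% and 22.4% over the array. Subunits of the oxoglutarate dehydrogenase complex rose with Ogdh. Dlst, the succinyl-transferring subunit, read 10.42 and 10.40 in the Lgr5(hi) arrays and 11.85 and 11.92 in the enterocyte arrays, 2.78-fold higher (adjusted p = 0.00285). Dld, the dihydrolipoamide dehydrogenase that several such complexes share, read 9.24 and 8.96 against 10.31 and 10.93, 2.86-fold higher (adjusted p = 0.0277). All 3 measured subunits of that complex were therefore higher in both enterocyte arrays. Aco1, the cytosolic aconitase that is also an iron-sensing RNA-binding protein, rose 1.79-fold (0.84 ± 0.15 SE, adjusted p = 0.026).

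Subunits of other enzymes were less uniform. Next to Idh3a, the regulatory subunits Idh3b and Idh3g of the same enzyme differed by -0.03 and -0.15, with groups that overlapped or met and neither past the threshold. The dimmer probe set of Idh3g gave 0.47, past the threshold. Next to Suclg1, the ATP-forming partner Sucla2 rose 1.98-fold (0.99 ± 0.17 SE, adjusted p = 0.0257), while the GTP-forming partner Suclg2 read 9.21 and 9.06 against 8.96 and 8.78 (-0.27, adjusted p = 0.152). Succinate dehydrogenase, which is also complex II of the respiratory chain, had its iron-sulphur subunit Sdhb 1.86-fold and its membrane anchor Sdhd 2.77-fold higher (adjusted p = 0.00587 and 0.00623). The dimmer probe set of Sdhd gave 1.56-fold. Its flavoprotein Sdha (0.62, adjusted p = 0.0689) and anchor Sdhc (0.66, adjusted p = 0.0532) did not pass, and both passed on their dimmer probe sets (1.06 and 0.88). Without either enterocyte array Dlst was the 1 gene of these 11 still called, against 663 or 570 genes called as higher over the array. Without either Lgr5(hi) array limma called 0 of these 11, as of all genes, with 6 or 4 higher and 0 lower at an unadjusted p under 0.05.

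**Figure D4:**
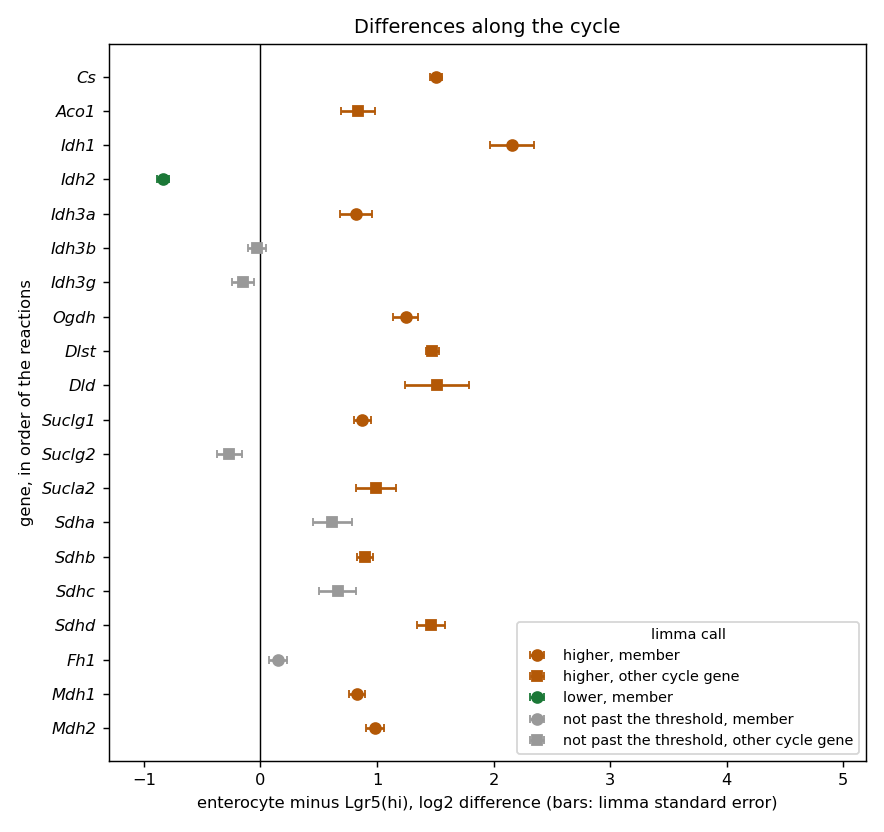
Log2 difference, enterocyte minus Lgr5(hi), of the 20 measured cycle genes in the order of the reactions; circles are the 9 members, squares the other 11 genes, and bars limma standard errors. In all, 13 genes are higher past the threshold, Idh2 is lower, and Idh3b, Idh3g, Suclg2 and Fh1 lie closest to 0.

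Genes that feed the cycle were also compared. Of 8 measured genes of pyruvate entry 2 were higher, 0 lower and 6 did not pass by limma, with a median of 0.25. At an unadjusted p under 0.05, 4 were higher and 0 lower. The limma share of 25% higher is near the 18.2% over the array, where 22.4% were lower. Mpc1, of the mitochondrial pyruvate carrier, rose 4.51-fold (2.17 ± 0.07 SE) and Dlat, the acetyl-transferring subunit of pyruvate dehydrogenase, 2.04-fold (1.03 ± 0.12 SE). Pdk4, a kinase that inhibits pyruvate dehydrogenase and was picked after its values were seen, read 6.73 and 7.25 in the Lgr5(hi) arrays and 8.71 and 10.32 in the enterocyte arrays. Its enterocyte arrays differed widely from each other, and it did not pass (2.53 ± 0.67 SE, adjusted p = 0.0652). Of 14 genes that supply or draw off intermediates 8 were higher, 1 lower and 5 did not pass, with a median of 0.74. Their shares were 57.1% higher and 7.14% lower, beside the same 18.2% and 22.4%. Pck1, the cytosolic enzyme that draws oxaloacetate into gluconeogenesis, rose 52.7-fold (5.72 ± 0.24 SE) from levels near background. Me1, the cytosolic malic enzyme, rose 50.3-fold (5.65 ± 0.16 SE), and Got1, the cytosolic aspartate aminotransferase, 16.1-fold (4.00 ± 0.10 SE). Pck2, the mitochondrial counterpart of Pck1, fell 5.16-fold (-2.37 ± 0.19 SE).

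Citrate use and the shuttles were split, with 3 of 8 genes higher, 3 lower and 2 not past the threshold, and a median of 0.33. That is 37.5% in each direction, beside 18.2% higher and 22.4% lower over the array. The oxoglutarate carrier Slc25a11 rose 4.92-fold (2.30 ± 0.14 SE), the aspartate-glutamate carrier Slc25a13 2.38-fold (1.25 ± 0.07 SE) and the mitochondrial acetyl-CoA synthetase Acss1 1.80-fold (0.85 ± 0.16 SE). Acly, which splits exported citrate to cytosolic acetyl-CoA for lipid synthesis, fell 3.46-fold (-1.79 ± 0.12 SE). The cytosolic acetyl-CoA synthetase Acss2 fell 2.51-fold (-1.33 ± 0.23 SE) and Nnt, the transhydrogenase that makes mitochondrial NADPH, 2.10-fold (-1.07 ± 0.15 SE).

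General mitochondrial genes went both ways. Of 14 genes of the outer membrane, import, chaperones and inner membrane, 4 were higher, 4 lower and 6 did not pass, at a median of -0.07 and a range from -1.55 to 1.78. These shares, 28.6% higher and 28.6% lower, stand beside 18.2% and 22.4% over the array. The channel Vdac2 rose 3.43-fold, cytochrome c (Cycs) 2.66-fold and the cristae protein Immt 2.17-fold. The import factor Timm44 fell 2.93-fold and the chaperones Hspe1 and Hspd1 2.24-fold and 1.87-fold. Among 14 regulators of mitochondrial genes 2 were higher, 7 lower and 5 did not pass, at a median of -0.66. That is 14.3% higher and 50% lower, beside the same 18.2% and 22.4%. The coactivator Ppargc1a rose 6.11-fold (2.61 ± 0.40 SE) and its partner receptor Esrra 1.98-fold (0.99 ± 0.09 SE). Pprc1, a related coactivator, fell 4.05-fold (-2.02 ± 0.27 SE), Myc 3.93-fold (-1.97 ± 0.17 SE) and Tfb2m, a mitochondrial transcription factor, 2.71-fold (-1.44 ± 0.19 SE). No list was tested against another.

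**Figure D5:**
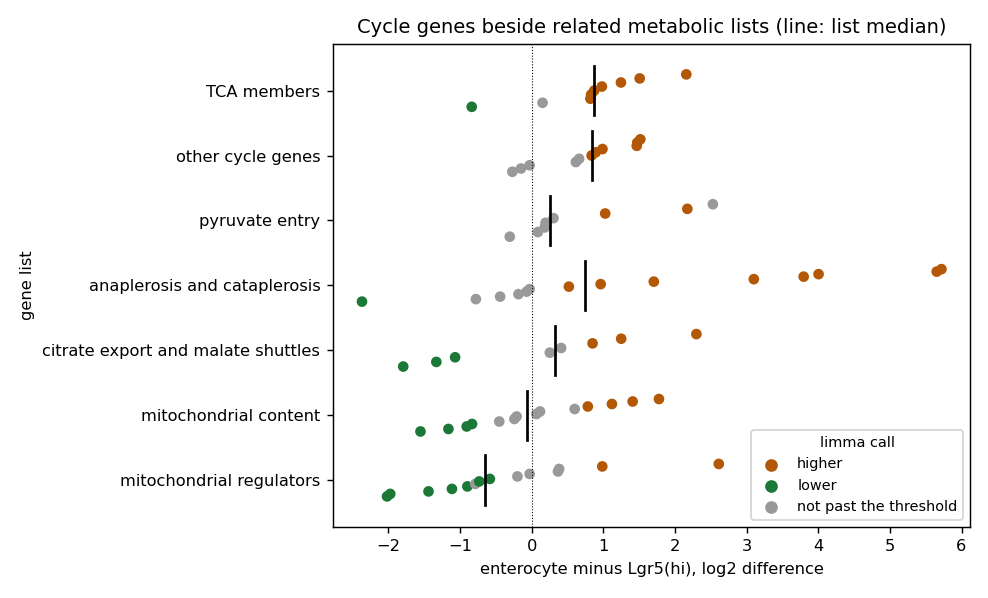
Log2 difference, enterocyte minus Lgr5(hi), of each measured gene in the cycle lists and in 5 related lists; colours give the limma call and a line each list's median. The cycle members and the other cycle genes have medians of 0.87 and 0.84, general mitochondrial genes -0.07 and mitochondrial regulators -0.66.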

How the data were processed

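Affymetrix expression arrays of 4 samples were analysed. The deposited values are a linear intensity for each probe set (7.93 to 41704). RMA is the tool named, per the submitters' processing notes; its version and how arrays were scaled to each other are not given in the sources used here. Since RMA writes log2 values, the deposited linear values were first turned into log2, without a pseudocount. Of 22690 probe sets, 64 controls were set aside and 20380 had exactly 1 symbol in the platform annotation (691 had several, 1606 were not listed). Names were checked against RefSeq GRCm38.p6. Each of 12393 genes was read from its probe set of highest mean log2 level.

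The groups entered a linear model with moderated variances (limma 3.58.1, R 4.3.3). Its two-sided p-values were adjusted by Benjamini and Hochberg's method across the 12393 genes and called under 0.05. The fit had 2 residual and 1.23 prior degrees of freedom, and the number of arrays limits the precision. Replicates were identical in 1268 genes of the Lgr5(hi) group and 1048 of the enterocyte group, which lowers the spread. Background (log2 5.59) was set at the 90th percentile of 21 genes known from other organs, of which limma called 0 (1 higher, 0 lower at an unadjusted p under 0.05). Errors are limma standard errors. The steps were tested on simulated data, for which no result is given here.

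Members, lists, tests and alternatives were chosen with earlier results of these data known. Every cycle gene is named, and from each further list up to 3 genes with the largest rise and 3 with the largest fall past the threshold. Alternatives covered the scaling, the probe set rule, dim genes, a pseudocount, the variance model, array weights, the replicate block and each array left out.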

Additional observations from a re-analysis of the deposited data

How the results depend on the processing

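With every array kept, 5 to 8 members were higher and 1 lower under each alternative, and 5 to 9 of the other cycle genes were higher and 0 lower. Leaving out an array in turn, which assumes that the lone array of a group varies like the other group, gave 0 to 2 members higher, 0 to 1 lower, 0 to 1 other cycle genes higher, 0 to 663 of all genes higher and 0 to 1058 lower. Centring each array on its own gene median shifted the array-wide median from -0.0026 to 0.22, and gave 3574 genes higher and 2458 lower instead of 2257 and 2779. Reference gene centring moved it to -0.10 and, with the median reference gene difference (chosen after the data were seen), to -0.15, with 7 members higher and 1 lower in both. Among the 8 reference genes limma itself called 3 as higher and 2 as lower.

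Deviations from the group means correlated little across genes between samples of the same number (r = 0.0504). A single correlation over all genes cannot show whether such samples share an animal or a batch. The replicate block gave 6 members higher and 1 lower, and 2010 and 2557 of all genes. It ended the calls of Idh3a (adjusted p = 0.0603), Dld (0.0587) and Sucla2 (0.0559) and called Sdhc (0.0349).

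Signs reversed as follows. Idh3b became 0.20 with median centring, 0.043 relative to general mitochondrial genes and 0.044 without Lgr5(hi) replicate 1. Idh3g became 0.074 with median centring, 0.16 when its probe sets were averaged by mean or median and 0.47 on its dimmest. Mdh1 became -0.50 on its dimmest. The ratio of Idh1 to Idh2 moved to 3.52 with probe sets averaged by mean or median and 4.05 on the dimmest. That of Mdh1 to Mdh2 moved to -0.29 with quantile normalization, -0.54 with the mean, -0.073 with the median and -2.21 with the dimmest probe sets, and reversed to 1.15 without probe sets that may cross-hybridise. The cause was not tested. Without those probe sets Idh1 had no value.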

Other observations

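Pairs of cytosolic and mitochondrial isozymes outside the cycle were set side by side after the values were seen, so they are given with no test. The log2 signal ratio of Pck1 to Pck2 was -4.55 and -4.74 in the Lgr5(hi) arrays and 2.998 and 3.897 in the enterocyte arrays. Pck1 itself read 5.92 and 5.56 in the Lgr5(hi) arrays, near the background of log2 5.59, so the size of this shift is uncertain. The ratio of Got1 to Got2, the aspartate aminotransferases, went from -3.03 and -3.01 to 1.21 and 1.13. The ratio of Me1 to Me2, the malic enzymes, went from -3.58 and -3.66 to 1.33 and 1.71. In these 3 pairs the cytosolic gene gained on the mitochondrial one in both enterocyte arrays, as Idh1 did on Idh2. For the alanine aminotransferases Gpt and Gpt2 no shift is given, since Gpt2 lay below the background level in the Lgr5(hi) arrays. Acetyl-CoA synthetases went the other way. The ratio of cytosolic Acss2 to mitochondrial Acss1 fell from 0.27 and 0.47 to -1.53 and -2.09.

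Subunits of an enzyme also shifted against each other. The log2 signal ratio of Sucla2 to Suclg2 was 2.13 and 2.12 in the Lgr5(hi) arrays and 3.10 and 3.67 in the enterocyte arrays. The ratio of Idh3a to Idh3b went from -1.44 and -1.52 to -0.75 and -0.52, on the probe set of Idh3a whose rise its other probe sets did not show.

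Of the 5 members with several probe sets, 4 (Cs, Idh1, Mdh1 and Mdh2) had a larger difference on a probe set other than the brightest. Idh3a had its largest difference on the brightest. In Mdh1 the larger difference came from 1 of 3 dimmer probe sets, and the other 2 gave smaller values.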
